A study of Sus scrofa with 6 samples.

Results

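Fibromodulin (FMOD), biglycan (BGN), cartilage oligomeric matrix protein (COMP), thrombospondin 4 (THBS4) and tetranectin (CLEC3B) are secreted proteins of the extracellular matrix that are abundant in tendon and other dense connective tissue. They were followed here in a red and a white skeletal muscle of the pig. Members were the probe sets of the authors' deposited comparison table whose symbol or title names 1 of these genes. This gave 5 probe sets, 1 per gene, of 550 in that table and of 24123 on the array. FMOD, BGN and COMP were named there by symbol, THBS4 by similarity to the human protein and CLEC3B by similarity to the bovine protein. The authors' deposited table kept probe sets with an unadjusted p-value under 0.05 and a fold of at least 1.5 between the muscles. It kept 323 probe sets higher in soleus, or 1.35% of those tested. The genes were thus chosen by the muscle difference itself, which is given below as a description without a test. Their UniGene sequence clusters in that table are Ssc.56133 for FMOD, Ssc.55055 for BGN, Ssc.16356 for COMP, Ssc.1411 for THBS4 and Ssc.5704 for CLEC3B.

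RNA came from 3 Meishan gilts of a single litter, aged 150 days, fed a standard diet and given no experimental treatment. Longissimus dorsi, a fast-twitch glycolytic back muscle taken at the last rib, was set against soleus, called SE in the protocol and described there as oxidative and sampled from its deep portion. The groups had 3 arrays each numbered as biological replicates 1 to 3, and the labels do not say that a number marks a pig. The deposited values are on a log2 scale on which 0 is the median of a probe set over the 6 arrays. Muscles can therefore be compared within a gene, whereas levels cannot be compared between genes or set against background. Muscle identity could not be checked by level for the same reason. Of 9 fibre markers looked up, 1 is named in the authors' deposited table, the IIb myosin heavy chain MYH4 of fast fibres, with a log2 difference (soleus minus longissimus dorsi) of -0.59 (SE 0.18).

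Fibromodulin and biglycan are small leucine-rich proteoglycans, which bind collagen fibrils and affect how the fibrils assemble and thicken. COMP and THBS4 belong to the thrombospondin family of calcium-binding, multi-subunit glycoproteins. Both bind collagens, and THBS4 is found in tendon and at the junction of tendon and muscle in the mouse. Tetranectin is a C-type lectin that binds plasminogen, the precursor of the protease plasmin. In skeletal muscle such proteins lie mainly in the connective tissue sheaths around fibres and bundles and in the tendinous ends. In RNA of whole muscle, a larger share of the cells that make a transcript and more of the transcript per cell cannot be told apart.

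All 5 genes had higher means in soleus, by 0.59 to 1.64 on the log2 scale, or 1.51-fold to 3.11-fold. Of all probe sets, 45.8% had a higher mean in soleus. The median difference was 0.84, against -0.03 over all 23935 non-control probe sets and 0.66 over the 549 non-control probe sets of the authors' deposited table. In 5 of 5 genes the lowest soleus array lay above the highest longissimus dorsi array, a pattern found in 6.08% of all probe sets. Calls were also made with limma, a linear model that draws each probe set's variance towards a value common to all. At an unadjusted p under 0.05 with at least 1.5-fold, 5 of 5 were called, against 2.89% of all probe sets in this direction. Since the authors' selection used the same contrast on the same arrays, nothing is read from these counts. After Benjamini-Hochberg adjustment 0 of the 5 passed 0.05 in limma, where 0.00418% of all probe sets passed in this direction. The unpaired equal-variance test with the same adjustment also called 0 of 5, whereas 5 of 5 had an unadjusted limma p under 0.05, against 4.35% of all in this direction.

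**Figure D1:**
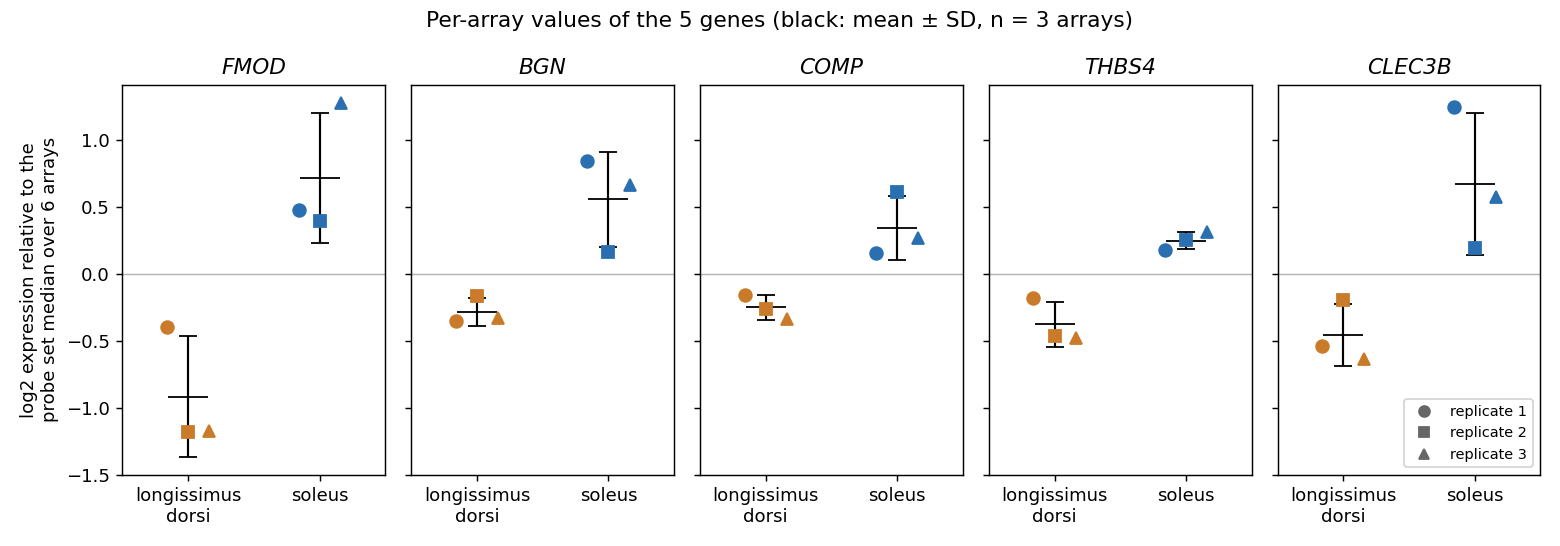
Centred log2 expression, with 0 at the median over 6 arrays (vertical axis), in each longissimus dorsi and soleus array, with a panel per gene, symbols for replicate numbers and black marks for mean ± SD over 3 arrays. In every panel the 3 soleus values lie above the 3 longissimus dorsi values, with the widest separation for FMOD and the tightest soleus values for THBS4.

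Fibromodulin, the collagen-binding keratan sulfate proteoglycan, had the largest difference of the 5. Its values in longissimus dorsi were -0.40, -1.18 and -1.18 in replicates 1, 2 and 3, and its values in soleus were 0.47, 0.40 and 1.28. Longissimus dorsi replicate 1 and soleus replicate 3 stood above the other arrays of their muscle, and the muscles did not overlap. The means were -0.92 ± 0.45 in longissimus dorsi and 0.72 ± 0.49 in soleus (SD, n = 3 arrays each). This gave a log2 difference of 1.64 (SE 0.31), or 3.11-fold, rank 24 of 23935 probe sets ordered by difference towards soleus. The close values of longissimus dorsi replicates 2 and 3 cannot be set against a background level, because centring removed the intensity.

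Biglycan, a proteoglycan with chondroitin or dermatan sulfate chains that also binds TGF-beta, had the third largest difference of the 5. Its values in longissimus dorsi were -0.35, -0.16 and -0.33, and in soleus 0.84, 0.16 and 0.67, in replicates 1, 2 and 3. Soleus replicate 2 was low, only 0.32 above the highest longissimus dorsi array. The means of -0.28 ± 0.10 and 0.56 ± 0.35 (SD, n = 3 arrays each) gave a difference of 0.84 (SE 0.20), or 1.79-fold. The soleus arrays spread over 0.68 and the longissimus dorsi arrays over 0.19.

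COMP, a thrombospondin that binds and helps to organise collagen, had the smallest difference. Longissimus dorsi values were -0.15, -0.26 and -0.34 in replicates 1, 2 and 3, and soleus values were 0.15, 0.61 and 0.27. Soleus replicate 2, the lowest soleus array for BGN, was the highest for COMP. The means were -0.25 ± 0.09 and 0.34 ± 0.24 (SD, n = 3 arrays each), with a difference of 0.59 (SE 0.17), or 1.51-fold. COMP was thus close to the limit of 1.5-fold. The authors' deposited table starts at 1.501-fold. Among probe sets under the same p limit and below 1.5-fold, the largest fold was 1.499, which is under 1.5 by definition. An unnamed probe set with nearly the same identifier as that of COMP differed by -0.22 (SE 0.18) and is described at the end.

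THBS4, the other thrombospondin, had nearly the same difference as COMP with less spread between arrays. Longissimus dorsi values were -0.18, -0.47 and -0.48 in replicates 1, 2 and 3, and soleus values were 0.18, 0.25 and 0.31. The soleus arrays spread over only 0.13, the least of the 5 genes, and longissimus dorsi replicate 1 stood above the other arrays of its muscle. The means of -0.38 ± 0.17 and 0.25 ± 0.06 (SD, n = 3 arrays each) gave a difference of 0.62 (SE 0.15), or 1.54-fold. Set against the pooled SD within muscles, the THBS4 difference was the largest of the 5, at 4.91 SDs, and CLEC3B the smallest, at 2.75.

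Tetranectin, the plasminogen-binding lectin encoded by CLEC3B, had the second largest difference and the widest soleus spread. Longissimus dorsi values were -0.54, -0.19 and -0.64 in replicates 1, 2 and 3, and soleus values were 1.25, 0.19 and 0.58. Soleus replicate 1 was the highest soleus array and replicate 2 the lowest, and the muscles did not overlap. The means were -0.46 ± 0.23 and 0.67 ± 0.53 (SD, n = 3 arrays each), with a difference of 1.13 (SE 0.27), or 2.19-fold. Its soleus arrays spread over 1.05, about as much as the difference between the muscles.

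The unadjusted p-values in the authors' deposited table, which helped to choose the genes, were 0.0130 for FMOD, 0.0170 for BGN, 0.0156 for COMP, 0.00386 for THBS4 and 0.0280 for CLEC3B. By fold, FMOD ranked 27 and COMP 541 among the 550 listed in the authors' deposited table.

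**Figure D2:**
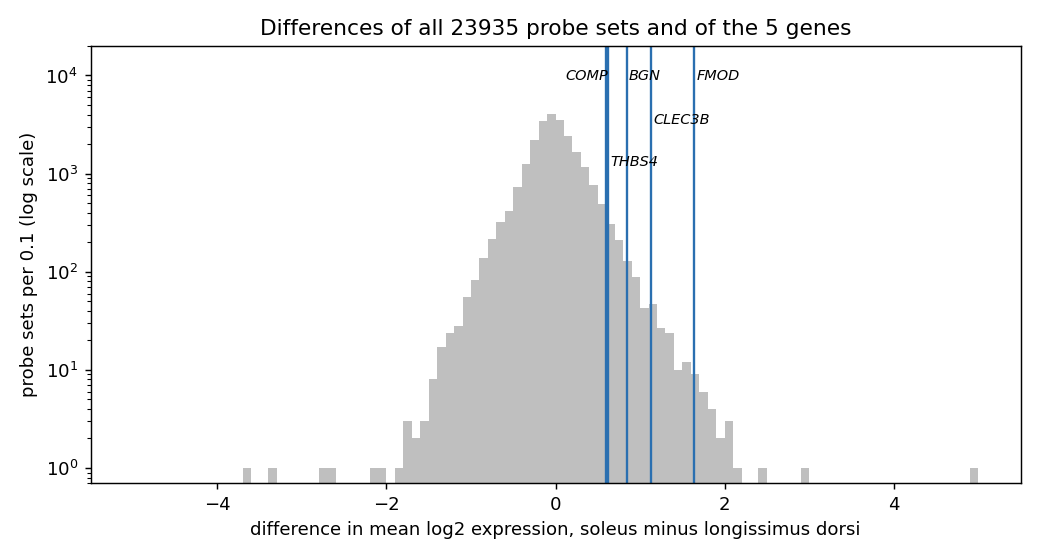
Number of probe sets per 0.1 of log2 difference (vertical axis, log scale) against the difference in mean log2 expression, soleus minus longissimus dorsi (horizontal axis), for all 23935 probe sets, with the 5 genes as blue lines. COMP and THBS4 sit at 0.59 and 0.62 on the shoulder of the distribution, and FMOD at 1.64 lies in its right tail.

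The gap between the muscles, from the highest longissimus dorsi array to the lowest soleus array, was 0.80 for FMOD, 0.31 for COMP, 0.32 for BGN, 0.36 for THBS4 and 0.39 for CLEC3B. These 2 arrays lie at equal distance from 0 for each gene, which follows from centring on the median of 6 values. The gap was wider than the range within longissimus dorsi for FMOD, BGN, COMP and THBS4, but not for CLEC3B. It was wider than the range within soleus for THBS4 alone.

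The genes did not share an order of arrays within the muscles. In soleus, replicate 1 was the highest array for BGN and CLEC3B, replicate 2 for COMP, and replicate 3 for FMOD and THBS4. Replicate 2 was the lowest soleus array for FMOD, BGN and CLEC3B, and replicate 1 for COMP and THBS4. In longissimus dorsi, replicate 1 was the highest for FMOD, COMP and THBS4, and replicate 2 for BGN and CLEC3B. BGN and CLEC3B thus had the same highest and lowest array in soleus and the same highest array in longissimus dorsi. COMP and THBS4, of the same protein family, shared the lowest soleus array and both ends of longissimus dorsi, but not the highest soleus array.

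**Figure D3:**
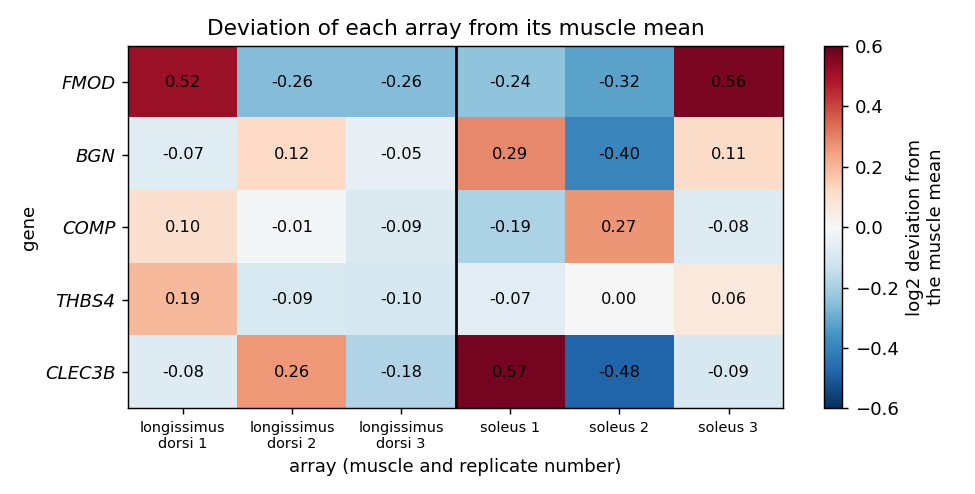
Deviation of each array from the mean of its muscle on the log2 scale (colour and printed value), for the 5 genes (rows) and 6 arrays (columns). FMOD deviates most in longissimus dorsi replicate 1 (0.52) and soleus replicate 3 (0.56), whereas CLEC3B deviates most in soleus replicate 1 (0.57) and replicate 2 (-0.48).

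Averaged over the 5 genes, the longissimus dorsi arrays had values of -0.32, -0.45 and -0.59 in replicates 1, 2 and 3, and the soleus arrays 0.58, 0.32 and 0.62. Soleus replicate 2 was the lowest soleus array of this mean, 0.65 above the highest longissimus dorsi array. That the mean separates the muscles follows from the lack of overlap in each of the 5 genes. Soleus replicate 3 had the widest values of all arrays (SD across probe sets 0.50, and 0.24 to 0.31 on the other 5). Quantile normalization, which gives all arrays the same distribution, was applied to the centred values. The mean over the 5 genes was then 0.52, 0.39 and 0.41 in soleus replicates 1, 2 and 3. Replicate 1 and not replicate 3 was the highest soleus array after this step. Leaving out FMOD had the same effect on this order, with 0.61, 0.30 and 0.46.

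Without soleus replicate 3, the array with the widest values, FMOD differed by 1.35 (2.56-fold), BGN by 0.78, COMP by 0.63, THBS4 by 0.59 and CLEC3B by 1.18. Over the 6 ways to leave out an array, FMOD ran from 2.56-fold to 3.72-fold, BGN from 1.62-fold to 2.05-fold and CLEC3B from 1.79-fold to 2.58-fold. COMP ran from 1.38-fold without soleus replicate 2 to 1.61-fold without soleus replicate 1, and was under 1.5-fold in 2 of the 6. THBS4 ran from 1.49-fold to 1.65-fold and was also under 1.5-fold in 2 of the 6.

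**Figure D4:**
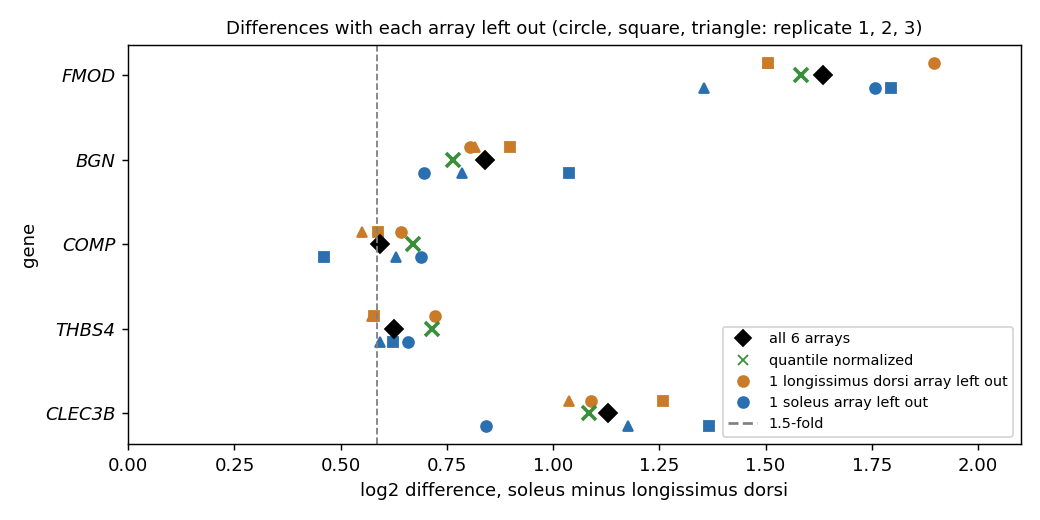
Log2 difference, soleus minus longissimus dorsi (horizontal axis), for each gene with all 6 arrays, after quantile normalization and with each array left out in turn (circle, square and triangle for replicates 1, 2 and 3). All points lie above 0, which was fixed beforehand for points with an array left out, because the muscles do not overlap. COMP and THBS4 have points on both sides of the 1.5-fold line, whereas FMOD, BGN and CLEC3B do not.

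Other genes of the same families and of tendon were looked up in the authors' deposited table, which alone pairs probe sets with names here. All had been kept for differing in these samples, so their folds start at 1.5 and no test is given. Of 12 small leucine-rich proteoglycans, FMOD and BGN were named, and the other 10, among them decorin and lumican, have no name in that table and were not analysed here. Of 7 genes of the plasminogen system CLEC3B was the only one named. In the thrombospondin list 3 of 11 genes were named, namely COMP, THBS4 and a transcript titled by similarity to mouse thrombospondin 3 (THBS3), a further family member.

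The THBS3 transcript had 2 probe sets from the same sequence cluster, with differences of 1.60 (SE 0.37) and 1.70 (SE 0.39). On the first its values were -0.40, -0.49 and -0.66 in longissimus dorsi and 0.86, 0.40 and 2.01 in soleus. Soleus replicate 3 stood far above the other arrays for THBS3. FMOD had its highest value on the same array, whereas the COMP value there was close to the soleus mean. COMP and THBS4 differed by 0.59 and 0.62, with SEs of 0.17 and 0.15.

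Of 20 tendon genes 13 were named, the 5 genes above among them. All 13 had higher means in soleus, with a median difference of 1.23 and 0 past the adjusted threshold in limma. Of the 550 probe sets in the authors' deposited table, 323 were higher in soleus, so nothing is read from the direction alone. The 8 that are not among the 5 genes above included TNXB, the matrix glycoprotein tenascin-X (1.55, SE 0.18), and TNC, tenascin C (1.41, SE 0.17). DPT, dermatopontin, a small matrix protein that binds the related proteoglycan decorin, differed by 1.48 (SE 0.25). The fibril-associated collagen COL14A1 differed by 1.23 (SE 0.32). Of 14 genes of the TGF-beta pathway 3 were named and all 3 had higher means in soleus. TGFB1, a growth factor that biglycan can bind, differed by 0.89 (SE 0.17) and TGFB3 by 0.99 (SE 0.25).

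**Figure D5:**
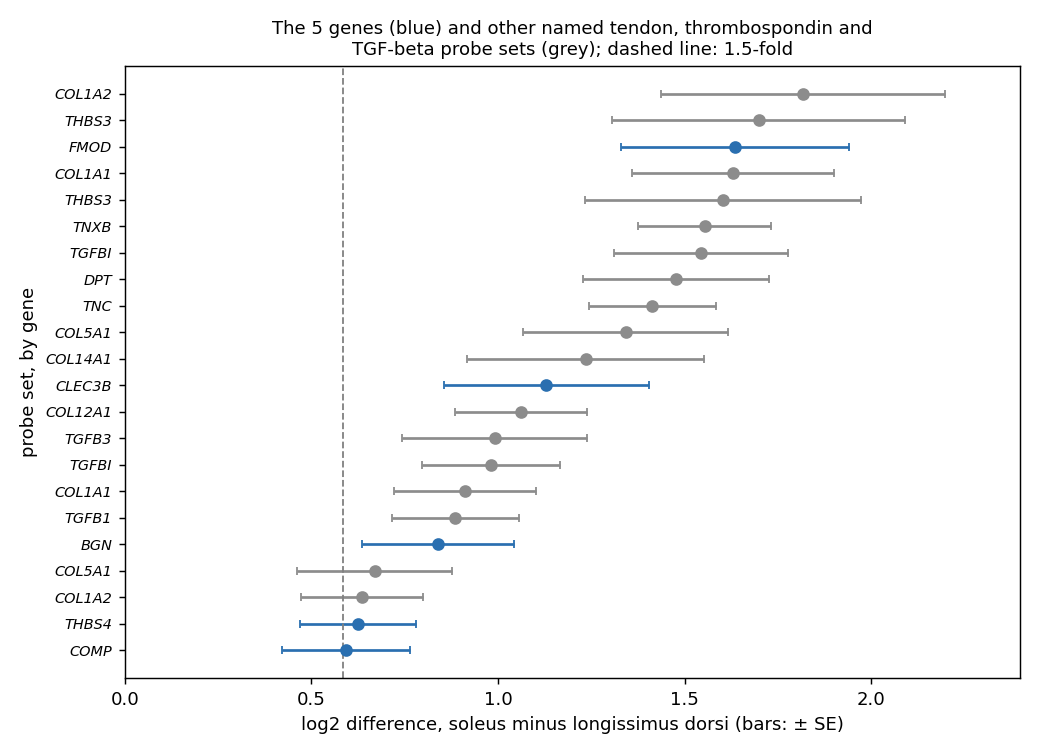
Log2 difference, soleus minus longissimus dorsi, with its SE (horizontal axis) for each probe set named for the 5 genes (blue) and for other tendon, thrombospondin and TGF-beta genes (grey). COMP and THBS4 have the smallest differences shown, and FMOD lies near the top beside THBS3. Type I collagen is spread out, with COL1A1 probe sets at 0.91 and 1.63 and COL1A2 probe sets at 0.64 and 1.82. All points lie above the dashed 1.5-fold line because the authors kept probe sets above it.

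Markers of other cell types could be named here only if the authors had kept them for a muscle difference, so that they differed was fixed beforehand. Those named had higher means in soleus, like the 5 genes, except the nerve and Schwann cell marker MBP. The fibre marker MYH4, given above, was also lower in soleus. Of the 550 probe sets that the authors kept, 323 were higher in soleus, so nothing is read from the direction alone. Of 5 smooth muscle and pericyte markers 2 were named, MYH11, the smooth muscle myosin heavy chain, and CNN1, calponin 1. Their mean was -0.69 to -0.30 over the longissimus dorsi arrays and 0.26 to 1.16 over the soleus arrays. Of 7 fibroblast markers 3 were named, COL1A1, COL1A2 and DPT, with means of -0.67 to -0.40 in longissimus dorsi and 0.37 to 1.04 in soleus. Soleus replicate 1 was the highest and replicate 2 the lowest soleus array of both lists. The same held for BGN, for CLEC3B and for the mean of the 8 other named tendon genes. Among leukocyte markers 1 of 4 was named, LAPTM5, at 0.65 (SE 0.20), and among nerve and Schwann cell markers 1 of 4, MBP, at -0.91 (SE 0.15). Of 5 cartilage, 4 endothelial and 4 adipocyte markers 0 were named. As values are centred, no marker could be said to be at or near 0, and the part of these cells in the differences was not tested.

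The named genes whose pattern over the 6 arrays was most like the mean of the 5 genes, by Pearson r, were TNXB (0.996), the secreted Wnt antagonist SFRP4 (0.993), a transcript titled villin 2 (0.989), the transmembrane prostate androgen induced transcript (0.987) and STEAP (0.986). Each had its lowest soleus value in replicate 2. All had been kept for the same muscle difference, the 6 arrays came from 3 pigs, and the values are a description. For deviations from the muscle means, the closest were a transcript titled transmembrane anchor protein 1 (0.995), STEAP (0.982) and the proprotein convertase titled paired basic amino acid cleaving system 4 (0.975). They were followed by cathepsin H (CTSH, 0.959) and neighbor of Punc E11 (0.938). With so few arrays, 117 of all probe sets other than the 5 were at least as alike as the last of these.

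Single genes had different nearest neighbours among the named genes. FMOD was closest to a transcript titled lunatic fringe (r = 0.995 over 6 arrays), BGN to brain creatine kinase (0.993) and COMP to smoothelin-like 1 (0.992). THBS4 was closest to a probe set named as the transmembrane prostate androgen induced transcript (0.998), a different probe set from the one above. CLEC3B was closest to a probe set titled elastin (0.995).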

How the data were processed

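Biotin-labelled cRNA from TRIzol-extracted, column-purified total RNA was hybridised to Affymetrix porcine arrays, per the labels' protocols and the file headers. How arrays were scaled is not given in the sources used here, where the submitters' processing notes name MAS5 2.3.1 alone. The deposited value table holds log2 expression that the authors centred on each probe set's median over 6 arrays, as found from the values (medians within 5e-07 of 0). The authors' deposited table gives an unpaired test's p-value, unadjusted, and fold, a linear ratio of muscle means, per the file headers. An equal-variance test matched its p-values within 4.74e-07.

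After 188 control probe sets were left out, limma 3.58.1 (R 4.3.3, lmFit and eBayes) was fitted to 23935 probe sets without further normalization, soleus against longissimus dorsi, unpaired, at a Benjamini-Hochberg adjusted p under 0.05. It was tested on simulated data with independent noise and 200 changed probe sets, without shared pigs or litters. Only the mean differences were required to come close to those set. SEs are limma's. The replicates are pigs of a single litter, so p-values do not cover variation between litters, and the shared pigs are left out of the fit. Array number limits precision.

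Probe sets were named by symbol or title in the authors' deposited table, and several by similarity to a protein of another species. Members, lists and title matches were chosen with earlier results of these data known. All 5 probe sets were named, all genes of the lists that the table names were counted with examples, and the 5 most alike named genes were taken by Pearson r. Alternatives were quantile normalization, the replicate block, each array or gene left out and the authors' test. Quantile normalization acted on the centred values and not on intensities, so it does not test how the arrays were scaled.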

Additional observations from a re-analysis of the deposited data

How the results depend on the processing

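The 2 probe sets past the adjusted threshold became 6 with quantile normalization and 1219 at an unadjusted p under 0.05 with at least 1.5-fold. Leaving out single arrays gave 1 to 4, with 1 without longissimus dorsi replicate 1 and 4 without soleus replicate 3, and the equal-variance test gave 2. With the replicate block the count was 7. Deviations of same-numbered samples from the muscle means correlated at -0.14, 0.11 and 0.25, so the numbers were not taken to pair the samples, and each sample was most like its own number in replicate 3 alone. The block leaves the differences of the 5 genes as they are. Their median of 0.84 was 0.70 to 1.04 with single arrays left out, and 0.76 after quantile normalization. Over 8 alternative settings and 5 genes, 0 of 40 differences changed sign and 0 moved by more than the pooled SD within muscles. As the genes were chosen for this direction, that says nothing about its stability. Leaving out a single array could not reverse a difference between muscles that do not overlap. Nor could it move a difference by the pooled SD, given 3 arrays per muscle. The block could change nothing, so only quantile normalization could have altered these counts. Taking the smallest probe set per gene could change nothing, since each gene has 1 named probe set. Other probe sets of these genes could not be identified. Signal over background is unknown, because the values are centred. The causes of the changes were not tested.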

Other observations

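Genes that build, modify or carry glycosaminoglycan chains, the sugar chains of proteoglycans such as biglycan, were picked by title after their values had been seen, so the count is a description. All 7 had been kept in the authors' deposited table and had higher means in soleus, as had 323 of its 550 probe sets. DSE, the dermatan sulfate epimerase that modifies chains of the kind biglycan carries, had values of -0.16, -0.34 and -0.35 in longissimus dorsi and 0.29, 0.16 and 0.71 in soleus, a difference of 0.67 (SE 0.19). EXT1, an enzyme of heparan sulfate synthesis, differed by 0.61 and SULF2, which removes sulfate groups from heparan sulfate, by 0.85. The cell-surface proteoglycans GPC4 and SDC2 differed by 0.71 and 0.77. GALNS and GUSB, lysosomal enzymes of glycosaminoglycan breakdown, differed by 0.68 and 1.11.

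A further probe set shares the first part of its identifier (Ssc.16356) with the COMP probe set but has no name in the files and was not among those the authors kept. Its values were 0.22, 0.22 and -0.13 in longissimus dorsi and -0.30, 0.13 and -0.18 in soleus. The muscles overlapped, and the difference of -0.22 (SE 0.18) ran opposite to that of COMP at 0.59. Whether it measures the COMP transcript is not given in the sources used here.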
